A study of Mus musculus with 12 samples.

Results

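Klf2 encodes a transcription factor of resting T cells. It was examined together with 6 genes for receptors that steer lymphocytes through spleen and lymph nodes: S1pr1, S1pr4, Ccr7, Cxcr5, Cxcr4 and Gpr183. They were picked by symbol, as every probe set that the platform annotation assigns to 1 of these symbols alone, which gave 8 probe sets for 7 of the 18193 genes measured. Gpr183 had 2 probe sets and each other gene had 1. The RNA was from CD4 T cells sorted from spleens of female mice of the lupus-prone strain MRL/Faslpr, which has a defective Fas death receptor, and was hybridised to 12 Affymetrix whole-genome mouse arrays. All 4 populations, naive cells included, carried the Fas lpr mutation and were TCRb+ CD4+ B220-, and each was measured on 3 arrays. The CD62Llo PSGL1lo, CD62Llo PSGL1hi and CD62Lhi PSGL1hi populations were CD44+ cells of aged mice (16 to 24 weeks). Naive CD62Lhi CD44lo cells came from young mice (6 to 8 weeks), so population and age cannot be told apart in comparisons with naive cells. CD62L is L-selectin, which lets lymphocytes enter lymph nodes, and PSGL1, encoded by Selplg, is a ligand of selectins.

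Sample titles call the arrays of a population technical replicates, whereas the series' design text speaks of independent sorts, and how many mice went into a sort is not given in the sources used here. The p-values therefore measure only the spread between these arrays, which may be technical. For the CD62Llo PSGL1hi arrays the description field gives a gate that contradicts the title and the design text, which were used here. Each deposited value is a ratio of an array's signal to the median of the same probe set over the 12 arrays. A ratio of 1 is that median, and ratios cannot rank genes by amount of RNA.

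In T cells, KLF2 maintains quiescence and directly activates S1pr1 and the gene for L-selectin, so that resting cells keep recirculating. S1P receptor 1 draws cells out of lymphoid tissue towards the sphingosine-1-phosphate of blood and lymph, while CCR7 brings them into the T cell zone. CXCR5 leads cells to B cell follicles, CXCR4 responds to CXCL12 and is used by helper cells outside follicles and in germinal centres, and GPR183 senses oxysterols and positions activated cells at the follicle's edge. Loss of KLF2 and S1PR1 with gain of CXCR5 is a known feature of follicular helper T cells.

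RefSeq sequence (GRCm38.p6) was available for the 250 bases upstream of 4 of the 7 genes. Klf2 and Cxcr4 are shown because they were the members with the largest fall and the largest rise between PSGL1lo and PSGL1hi cells. The Klf2 stretch lies at chr8:72318812-72319061 on the plus strand and the Cxcr4 stretch at chr1:128592300-128592549 on the minus strand. Both are written 5′ to 3′ towards the gene, with motif matches in capitals.
Klf2: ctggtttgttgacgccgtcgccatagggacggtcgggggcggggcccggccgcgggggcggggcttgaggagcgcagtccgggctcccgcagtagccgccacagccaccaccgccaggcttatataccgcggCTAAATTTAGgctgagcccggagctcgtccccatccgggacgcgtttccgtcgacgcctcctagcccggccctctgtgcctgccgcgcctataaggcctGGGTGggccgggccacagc
Cxcr4: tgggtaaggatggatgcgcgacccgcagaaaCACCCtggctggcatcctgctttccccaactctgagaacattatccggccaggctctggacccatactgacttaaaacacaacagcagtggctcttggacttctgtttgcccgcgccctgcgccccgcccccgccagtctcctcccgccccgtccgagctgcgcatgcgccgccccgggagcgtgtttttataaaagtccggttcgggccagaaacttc
In Klf2 the first run of capitals is a MEF2 site, 118 to 109 bases before the gene's start. MEF2 factors are known activators of Klf2, and 0.508% of 32851 upstream stretches of this length held such a site on either strand. The last run in Klf2, 19 to 15 bases before the start, is a CACCC box read on the opposite strand, the kind of motif that Krüppel-like factors recognise. Cxcr4 held a CACCC box 219 to 215 bases before its start, and the upstream stretch of S1pr4 held 1 on the opposite strand, 107 to 103 bases before its start. This short motif occurred in 52% of all upstream stretches. The forkhead motif GTAAACA, searched on both strands because FOXO1 activates Klf2, occurred in 3.17% of them and in none of the 4 available here. Gpr183 held none of the 3 motifs. A match of letters describes the sequence and shows no binding.

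The RNA of Selplg and Cd44 matched the gates. Selplg had ratios of 0.118, 0.127 and 0.153 in CD62Llo PSGL1lo cells and between 0.906 and 1.147 on the other arrays. Cd44 averaged 0.0791 in naive cells and between 0.870 and 1.27 in the 3 CD44+ populations. CD4 T cell markers gave summed ratios of 6.71 to 8.97 over 8 genes on all arrays. Of these, 4 genes differed among the populations (Cd4, Cd2, Cd28 and Trat1), and not in the same direction. Trat1 had mean ratios of 0.175, 0.952, 1.12 and 1.68 in CD62Llo PSGL1lo, CD62Llo PSGL1hi, CD62Lhi PSGL1hi and naive cells. Cd4 had 1.16, 1.16, 0.774 and 0.742, and Cd2 and Cd28 were also lowest in naive cells. The sums therefore hide changes of single markers. Some markers of other cells differed too. Differing here means an adjusted p under 0.05 in limma's F test among the 4 populations, which 28.3% of all genes passed. The endothelial and dendritic counts are near or below that share. For 7 myeloid markers the summed ratio was 5.35 to 8.57 in CD62Llo PSGL1lo, 5.72 to 7.91 in CD62Llo PSGL1hi and 5.62 to 7.85 in CD62Lhi PSGL1hi cells, against 31.3 to 33.5 in naive cells, and 3 of 7 genes differed. S100a8 and S100a9, abundant in neutrophils, made that gap, with naive ratios between 11.96 and 14.67 and at most 1.488 elsewhere. For 9 B cell markers, of which 5 differed, the sums were 7.93 to 9.28, 8.36 to 9.42, 8.44 to 10.2 and 9.58 to 9.78 in CD62Llo PSGL1lo, CD62Llo PSGL1hi, CD62Lhi PSGL1hi and naive cells. For 5 plasma cell markers, of which 3 differed, they were 4.06 to 5.79, 5.05 to 6.42, 6.15 to 9.16 and 3.38 to 3.66 in the same populations. For 7 endothelial markers, of which 2 differed, they were 7.36 to 7.89, 6.40 to 6.44, 6.56 to 6.81 and 7.45 to 7.70. Cd8a and Cd8b1 both differed, with sums of 1.56 to 2.13 in the CD44+ populations and 2.59 to 3.16 in naive cells. Of 6 dendritic markers 1 differed, and the 1 NK cell marker measured did not pass the test. A ratio has no zero, so it cannot show whether a marker is absent, and the part of these cells in the results was not tested.

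All 7 genes differed among the 4 populations in limma's F test, with Benjamini-Hochberg adjusted p-values between 1.97e-12 and 2.28e-05. Of all 18193 genes 28.3% did so. The 7 genes were chosen with earlier results of these data known, so shares over all genes are a reference here and not a test. Between the low- and high-PSGL1 cells that share low CD62L, 3 members were lower (Klf2, S1pr1, S1pr4) and 2 higher (Cxcr5, Cxcr4), against 10.7% of all genes called in that comparison, 4.55% higher and 6.17% lower. The same 5 genes differed the same way between CD62Llo PSGL1lo and CD62Lhi PSGL1hi cells, which share the CD62Llo PSGL1lo arrays with the first comparison. There 14.8% of all genes were called, 6.7% higher and 8.1% lower. None of the 7 passed limma's test between CD62Llo PSGL1hi and CD62Lhi PSGL1hi cells, where 2.11% of all genes did. At an unadjusted p under 0.05, 1 member (Klf2) differed there. Klf2 was also called there when the replicate number was added to the fit as a block over 12 arrays (adjusted p = 0.0474). The median absolute log2 difference of the members was 0.82 for low against high PSGL1 and 0.25 for low against high CD62L, beside 0.11 and 0.09 over all genes.

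Against naive cells the members split into a group that was lower and a group that was higher in antigen-experienced cells. In CD62Llo PSGL1lo cells Klf2, S1pr1, S1pr4 and Ccr7 were lower and Cxcr5, Cxcr4 and Gpr183 higher, 7 of 7 called, against 23.2% of all genes (10.9% higher and 12.3% lower). The same 7 calls were made in CD62Llo PSGL1hi cells, where 20.8% of all genes were called (10.7% higher and 10.1% lower). In CD62Lhi PSGL1hi cells 6 of 7 were called, all except S1pr4, with 20.7% of all genes called (10.4% higher and 10.3% lower). These comparisons share the naive arrays. In bulk RNA, fewer cells expressing a gene and less RNA per cell cannot be told apart.

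**Figure D1:**
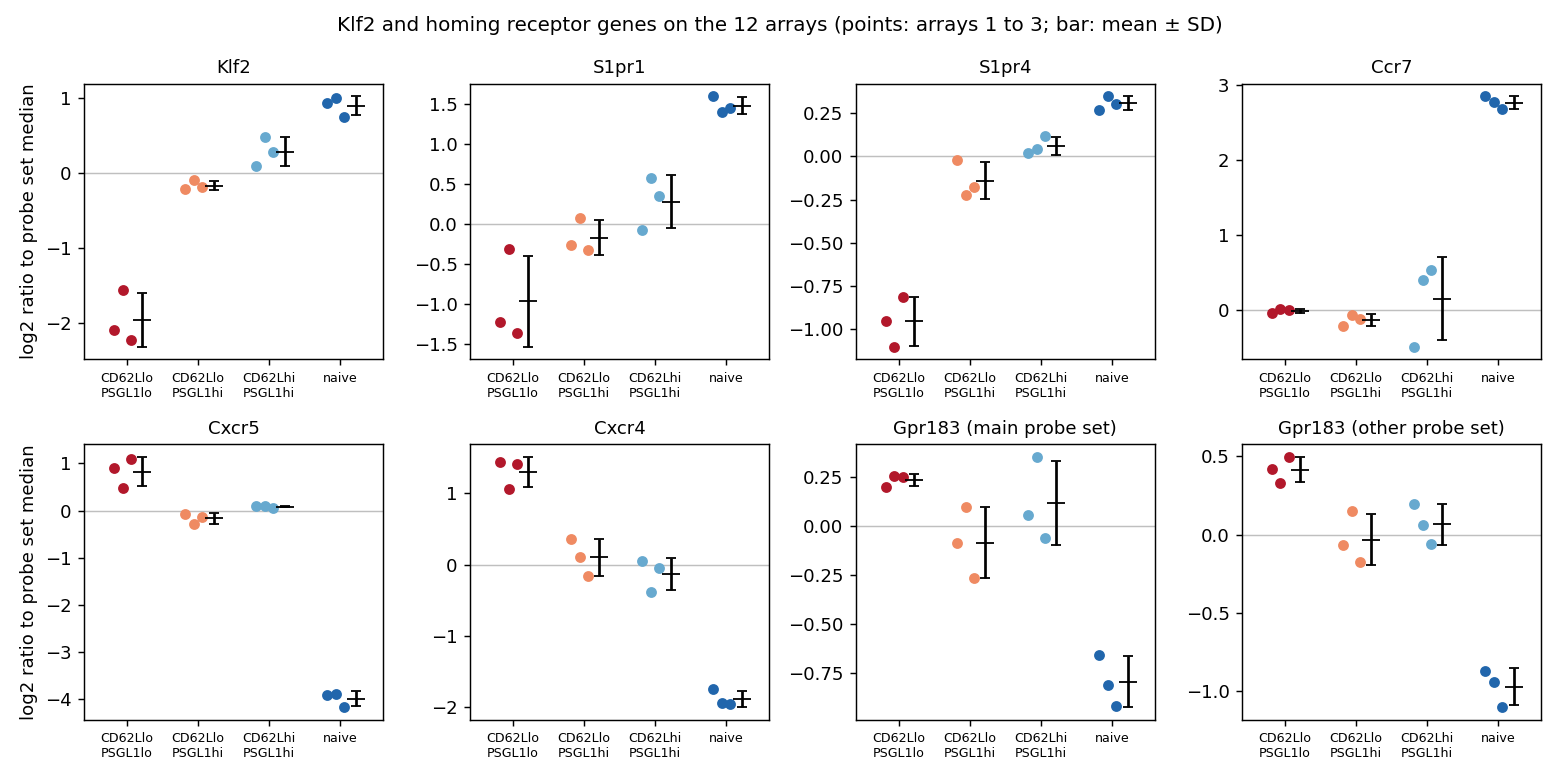
Log2 ratio of each probe set to its median over the 12 arrays (y axis, its range differing between panels), with points for arrays and bars for mean ± SD (n = 3) in CD62Llo PSGL1lo, CD62Llo PSGL1hi, CD62Lhi PSGL1hi and naive cells. Klf2, S1pr1 and S1pr4 climb from left to right, Ccr7 is high in naive cells alone, and Cxcr5, Cxcr4 and both Gpr183 probe sets are lowest in naive cells.

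Klf2 (probe set 1448890_at) had the largest fall of the 7 genes in PSGL1lo cells. Its ratios were 0.234, 0.338 and 0.212 in CD62Llo PSGL1lo cells, 0.860, 0.936 and 0.877 in CD62Llo PSGL1hi cells, 1.064, 1.396 and 1.215 in CD62Lhi PSGL1hi cells, and 1.920, 2.002 and 1.688 in naive cells. No population's range overlapped another's. Low PSGL1 went with a difference of -1.80 ± 0.15 on the log2 scale (SE; 95% interval -2.12 to -1.48), a 3.48-fold lower ratio (adjusted p = 4.55e-07). Against naive cells Klf2 was 7.29-fold lower in CD62Llo PSGL1lo cells (-2.87 ± 0.15, adjusted p = 5.25e-10). The CD62Llo PSGL1hi population was 2.09-fold lower than naive (adjusted p = 6.13e-05) and the CD62Lhi PSGL1hi population 1.53-fold lower (adjusted p = 0.00704). Klf2 thus stood in the order naive, CD62Lhi PSGL1hi, CD62Llo PSGL1hi, CD62Llo PSGL1lo, with every neighbour in it separated by the test except the middle pair. For that pair the difference was -0.45 ± 0.15 (interval -0.77 to -0.13, adjusted p = 0.2). It was called in 2 of 21 settings, with the replicate number as a block over 12 arrays (adjusted p = 0.0474) and without CD62Llo PSGL1lo replicate 2 (0.0441). With the block within the 9 CD44+ arrays, the adjusted p was 0.0583.

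S1pr1 (1423571_at), the receptor for exit from lymphoid tissue and a direct KLF2 target, followed the same order of population means. Its ratios were 0.429, 0.802 and 0.390 in CD62Llo PSGL1lo cells, 0.831, 1.054 and 0.795 in CD62Llo PSGL1hi cells, 0.946, 1.485 and 1.277 in CD62Lhi PSGL1hi cells, and 3.026, 2.632 and 2.726 in naive cells. The naive arrays stood far above the rest, and the ranges of the 2 CD62Llo populations overlapped through CD62Llo PSGL1lo replicate 2. Low PSGL1 went with a difference of -0.79 ± 0.22 (1.73-fold lower, adjusted p = 0.0296). That call held in 14 of 21 settings of the analysis, the reported one included, and was lost, among others, without CD62Llo PSGL1lo replicate 1 (adjusted p = 0.117) or 3 (0.156), without CD62Llo PSGL1hi replicate 1 (0.0617) or 2 (0.134), and after quantile normalization (0.203). Between CD62Llo PSGL1lo and CD62Lhi PSGL1hi cells S1pr1 was 2.37-fold lower (-1.25 ± 0.22, adjusted p = 0.000776), with no overlap, and all 21 settings gave this call. S1pr1 was 5.45-fold lower than naive in CD62Llo PSGL1lo cells, 3.15-fold lower in CD62Llo PSGL1hi cells and 2.30-fold lower in CD62Lhi PSGL1hi cells, with adjusted p-values of 3.44e-07, 3.51e-05 and 0.000776. Low against high CD62L gave -0.46 ± 0.22 (interval -0.93 to 0.02, adjusted p = 0.51).

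S1pr4 (1451024_at) encodes another sphingosine-1-phosphate receptor of lymphocytes. It had ratios of 0.516, 0.466 and 0.569 in CD62Llo PSGL1lo cells, 0.986, 0.855 and 0.885 in CD62Llo PSGL1hi cells, 1.014, 1.032 and 1.087 in CD62Lhi PSGL1hi cells, and 1.205, 1.274 and 1.236 in naive cells. The CD62Llo PSGL1lo arrays were lowest and the 4 ranges did not overlap. The ratio was 1.76-fold lower with low PSGL1 (-0.82 ± 0.10, adjusted p = 2.76e-05). Against naive cells S1pr4 was 2.40-fold lower in CD62Llo PSGL1lo cells (adjusted p = 6.14e-08) and 1.36-fold lower in CD62Llo PSGL1hi cells (adjusted p = 0.00343). CD62Lhi PSGL1hi cells gave -0.25 ± 0.10 against naive (interval -0.46 to -0.04, adjusted p = 0.0998), and low against high CD62L gave -0.20 ± 0.10 (interval -0.41 to 0.01, adjusted p = 0.511).

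**Figure D2:**
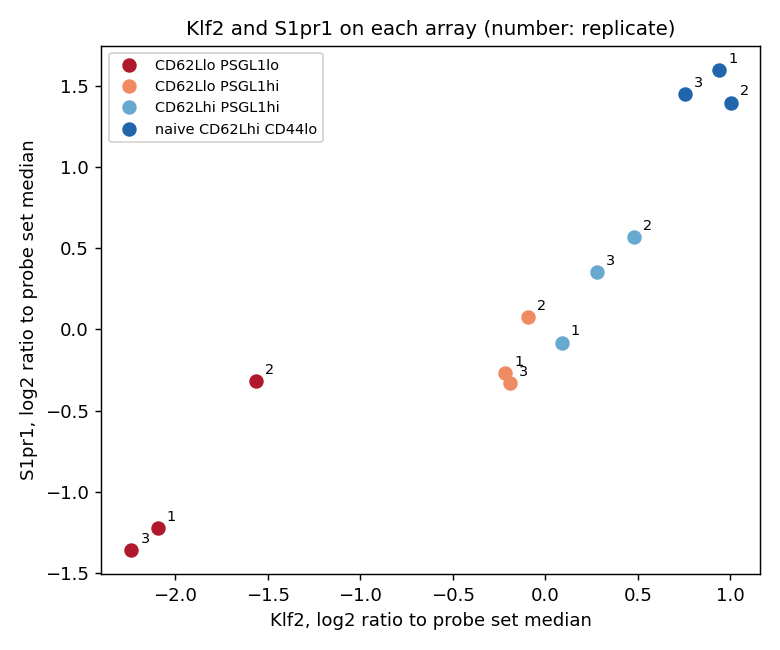
Log2 ratio of S1pr1 (y axis) against that of Klf2 (x axis) on each of the 12 arrays, coloured by population and numbered by replicate. CD62Llo PSGL1lo arrays lie at the lower left and naive arrays at the upper right, and replicate 2 has the highest Klf2 and S1pr1 of each CD44+ population.

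Klf2 and S1pr1 shared more than their order of means. Replicate 2 had the highest Klf2 and also the highest S1pr1 ratio in each of the 3 CD44+ populations. Naive replicate 2 instead had the highest Klf2 and the lowest S1pr1. The lead of replicate 2 was not particular to this pair. The main Gpr183 probe set was also highest in replicate 2 in all 3 CD44+ populations, and Ccr7 was in both CD62Llo populations. The root mean square distance between the log2 patterns of Klf2 and S1pr1 over the 12 arrays, each centred on its mean, was 0.447. It was the smallest of the 21 pairs of members. S1pr1 with S1pr4 came next at 0.598 and Klf2 with S1pr4 at 0.637. The arrays of a population share their gate and the naive arrays their mouse age, so these distances describe the 12 arrays alone. CD62Llo PSGL1lo replicate 2 lay nearest to the PSGL1hi arrays of its population for Klf2, S1pr1, Cxcr5 and Cxcr4, though not for S1pr4. Its Selplg ratio of 0.127 lay between those of the other 2 arrays, and its root mean square deviation from its population over all genes, 0.189, was the largest of the 12 arrays.

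Ccr7 (1423466_at), the receptor for entry into T cell zones, separated naive cells from all CD44+ cells, with no call between CD44+ populations. Its ratios were 0.968, 1.006 and 0.994 in CD62Llo PSGL1lo cells, 0.858, 0.954 and 0.915 in CD62Llo PSGL1hi cells, 0.712, 1.317 and 1.447 in CD62Lhi PSGL1hi cells, and 7.164, 6.803 and 6.353 in naive cells. Ccr7 was 6.84-fold lower than naive in CD62Llo PSGL1lo cells (-2.77 ± 0.19, adjusted p = 9.46e-09). It was 7.45-fold lower in CD62Llo PSGL1hi cells (-2.90 ± 0.19, adjusted p = 7.83e-09) and 6.11-fold lower in CD62Lhi PSGL1hi cells (-2.61 ± 0.19, adjusted p = 3.28e-08). Low against high PSGL1 gave 0.12 ± 0.19 (interval -0.27 to 0.52, adjusted p = 0.82), although the ranges of the 2 CD62Llo populations did not overlap. The CD62Lhi PSGL1hi arrays spanned both sides of the others, with replicate 1 lowest. Without that array, low against high CD62L gave -0.60 ± 0.11 (adjusted p = 0.00507, against -0.29 and 0.704 with it), and CD62Llo PSGL1lo against CD62Lhi PSGL1hi gave -0.48 ± 0.11 (adjusted p = 0.00558, against -0.16 and 0.711). Without replicate 3 of that population instead, the second difference was 0.03.

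Cxcr5 (1422003_at), the follicle-homing receptor, had the largest differences of the 7 genes from naive cells in each CD44+ population. After quantile normalization Ccr7 differed more in CD62Llo PSGL1hi cells (-2.42, against 1.80 for Cxcr5). The Cxcr5 ratios were 1.866, 1.400 and 2.137 in CD62Llo PSGL1lo cells, 0.954, 0.819 and 0.916 in CD62Llo PSGL1hi cells, 1.069, 1.068 and 1.046 in CD62Lhi PSGL1hi cells, and 0.0669, 0.0676 and 0.0556 in naive cells. All CD44+ arrays were more than 10 times above every naive array, and the CD62Llo PSGL1lo arrays were highest. Against naive cells the ratio was 28.1-fold higher in CD62Llo PSGL1lo cells (4.81 ± 0.14 on the log2 scale, adjusted p = 1.63e-12), 14.2-fold higher in CD62Llo PSGL1hi cells and 16.8-fold higher in CD62Lhi PSGL1hi cells. Quantile normalization lowered these log2 differences to 2.71, 1.80 and 2.14, all still called. Low PSGL1 went with a 1.98-fold higher ratio (0.99 ± 0.14, adjusted p = 9.57e-05), and CD62Llo PSGL1lo cells exceeded CD62Lhi PSGL1hi cells 1.67-fold (adjusted p = 0.001). Low against high CD62L gave -0.25 ± 0.14 (interval -0.54 to 0.04, adjusted p = 0.6), with ranges that did not overlap. B cells also use CXCR5, and single B cell markers moved in both directions. With low PSGL1, 2 of 9 were lower and none higher, beside 6.17% and 4.55% of all genes. Between CD62Llo PSGL1lo and naive cells 4 of 9 were lower and 1, Cd22, higher, beside 12.3% and 10.9%. Cd22 had mean ratios of 1.75, 1.19, 0.841 and 0.440 in CD62Llo PSGL1lo, CD62Llo PSGL1hi, CD62Lhi PSGL1hi and naive cells (1.94 against naive, adjusted p = 6.9e-07), and Ms4a1 had 0.332, 0.973, 1.31 and 1.32 (-1.51 with low PSGL1, adjusted p = 0.000694). The part of B cells in the Cxcr5 values was not tested.

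Cxcr4 (1448710_at), the CXCL12 receptor, ran in the direction opposite to Klf2. Its ratios were 2.706, 2.090 and 2.659 in CD62Llo PSGL1lo cells, 1.280, 1.079 and 0.897 in CD62Llo PSGL1hi cells, 1.033, 0.768 and 0.967 in CD62Lhi PSGL1hi cells, and 0.297, 0.260 and 0.257 in naive cells. The CD62Llo PSGL1lo arrays were highest, the 2 PSGL1hi populations overlapped, and naive arrays were lowest. The ratio was 2.30-fold higher with low PSGL1 (1.20 ± 0.15, adjusted p = 3.07e-05), and CD62Llo PSGL1lo cells exceeded CD62Lhi PSGL1hi cells 2.70-fold (adjusted p = 3.18e-06). Against naive cells Cxcr4 was 9.12-fold higher in CD62Llo PSGL1lo cells (3.19 ± 0.15, adjusted p = 1.36e-10), 3.97-fold higher in CD62Llo PSGL1hi cells (1.99) and 3.38-fold higher in CD62Lhi PSGL1hi cells (1.76). After quantile normalization these log2 differences were 1.96, 1.10 and 0.79 and still called. Low against high CD62L gave 0.23 ± 0.15 (interval -0.08 to 0.54, adjusted p = 0.694).

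Gpr183, the oxysterol receptor, was higher in all CD44+ populations than in naive cells. On its main probe set (1437356_at) the ratios were 1.149, 1.194 and 1.190 in CD62Llo PSGL1lo cells, 0.942, 1.072 and 0.833 in CD62Llo PSGL1hi cells, 1.041, 1.278 and 0.959 in CD62Lhi PSGL1hi cells, and 0.635, 0.571 and 0.530 in naive cells. These were 2.04-fold, 1.64-fold and 1.88-fold above naive in the same order of CD44+ populations, with adjusted p-values of 7.92e-06, 0.000425 and 3.93e-05. After quantile normalization the CD62Llo PSGL1hi difference was 0.39 (adjusted p = 0.0548). The other probe set (1457691_at) had ratios of 1.338, 1.258 and 1.408 in CD62Llo PSGL1lo cells, 0.953, 1.109 and 0.885 in CD62Llo PSGL1hi cells, 1.147, 1.043 and 0.957 in CD62Lhi PSGL1hi cells, and 0.546, 0.519 and 0.465 in naive cells. In a fit of all 45037 probe sets it was 2.62-fold, 1.92-fold and 2.06-fold above naive, where 20.1%, 17.3% and 17.3% of probe sets were called. Both probe sets were higher on average with low PSGL1, and they fell on different sides of the threshold in 2 different fits. Their differences were 0.32 ± 0.12 on the main probe set (adjusted p = 0.132 over genes) and 0.45 ± 0.11 on the other (adjusted p = 0.0207 over probe sets, of which 8.38% were called). On both, the ranges of the 2 CD62Llo populations did not overlap.

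**Figure D3:**
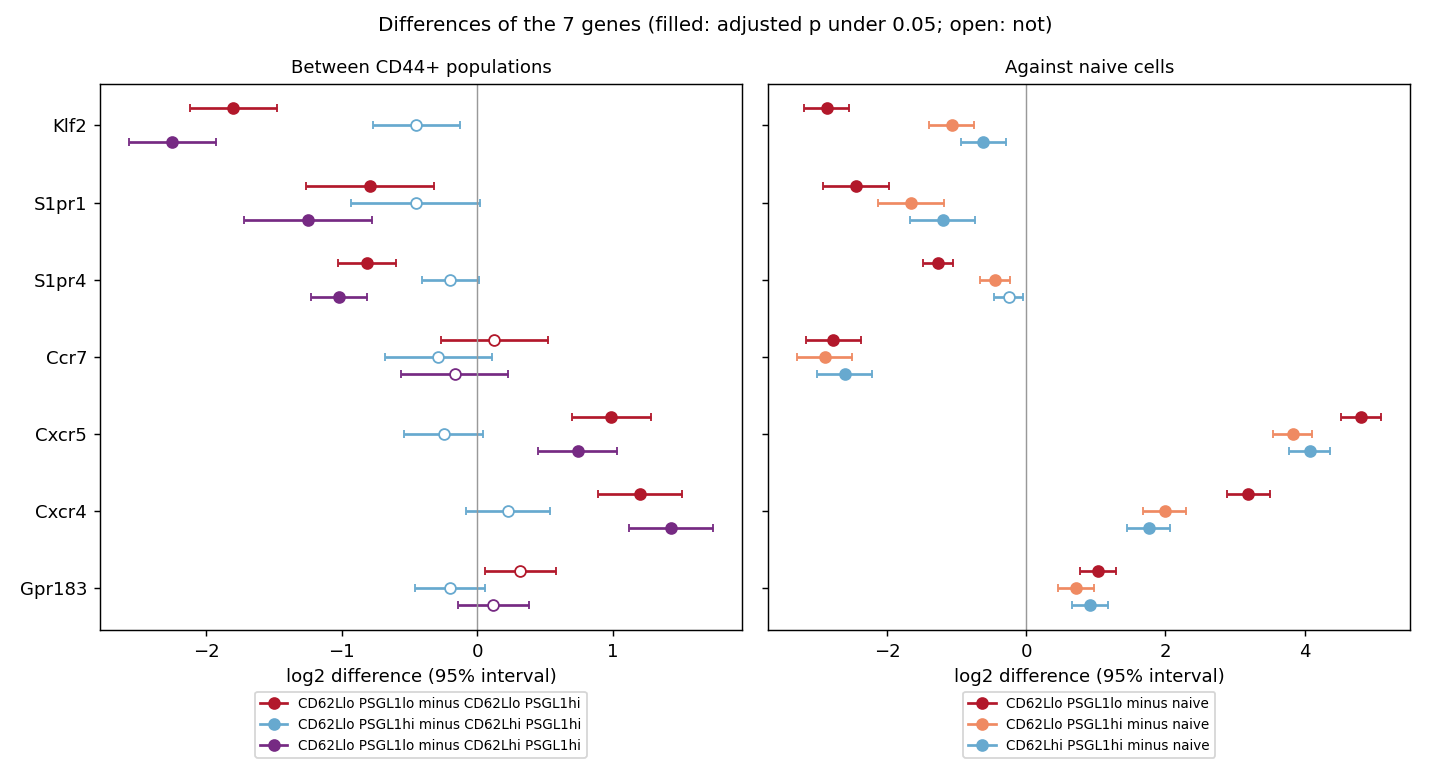
Log2 differences of the 7 genes with 95% intervals (x axis), between CD44+ populations on the left and against naive cells on the right; filled points passed an adjusted p under 0.05. Between low and high CD62L every point is open, whereas low against high PSGL1 gives filled points for Klf2, S1pr1, S1pr4, Cxcr5 and Cxcr4.

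Whether a gene changed unequally over the 2 sorting steps was asked directly, as the PSGL1 difference among CD62Llo cells minus the CD62L difference among PSGL1hi cells. Of the 7 genes 3 passed this test, against 3.94% of all genes. Klf2 differed by -1.35 ± 0.26 (adjusted p = 0.00611), so its fall was larger over the PSGL1 step, and Cxcr5 by 1.23 ± 0.24 (adjusted p = 0.00534). Quantile normalization left the Klf2 value at -0.97 and its adjusted p at 0.0572. Cxcr4 gave 0.97 ± 0.26 (adjusted p = 0.0448), which passed in only 8 of 21 settings, the value falling to 0.54 (adjusted p = 0.435) after quantile normalization. S1pr4 gave -0.61 ± 0.17 (adjusted p = 0.063; 0.0408 without CD62Llo PSGL1lo replicate 3) and Gpr183 0.52 ± 0.21 (adjusted p = 0.274). For S1pr1 the value was -0.34 (interval -1.15 to 0.48, adjusted p = 0.823) and for Ccr7 0.41 (interval -0.28 to 1.10, adjusted p = 0.704). Without CD62Lhi PSGL1hi replicate 1 the Ccr7 value was 0.73 (adjusted p = 0.025).

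The genes most like each member were taken as those with the smallest root mean square distance of centred log2 ratios over the 12 arrays. Rasgrp2, an activator of the integrin switch Rap1, was nearest to Klf2 at 0.182, with mean ratios of 0.266, 0.833, 1.174 and 2.025 in CD62Llo PSGL1lo, CD62Llo PSGL1hi, CD62Lhi PSGL1hi and naive cells. Ecm1 (0.244) and Arhgef18 (0.262) came next. S1pr1 was nearest to P2ry10b (0.26), Znrf3 (0.302) and Chd7 (0.334). S1pr4 was nearest to Iqgap2 (0.107), Nup210 (0.113) and the thromboxane receptor gene Tbxa2r (0.116). Ccr7 was nearest to Xkrx (0.276), Tdgf1 (0.294) and Tbc1d16 (0.303), each with a mean ratio above 4.8 in naive cells and below 1.2 elsewhere. Cxcr5 was nearest to Stx11 (0.201), Vsig10 (0.276) and the gate gene Cd44 (0.374). Cxcr4 was nearest to Ly96 (0.153), a partner of Toll-like receptor 4, followed by Serpinf1 (0.17) and Fam241b (0.189). Gpr183 was nearest to Zswim6 (0.136), Cers4 (0.14) and Blmh (0.143). Between members, Cxcr4 lay 0.809 from Gpr183 and 0.885 from Cxcr5, and the widest distance, 3.064, was that of Ccr7 from Cxcr5.

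Regulators known to act on Klf2 moved with it in part. Of 11 such genes measured, 3 were lower and none higher with low PSGL1 among CD62Llo cells (Foxo1, Mef2a and Akt1), and 4 were lower and none higher than in naive cells. Over all genes 6.17% were lower and 4.55% higher with low PSGL1, and 12.3% lower and 10.9% higher against naive cells. The median of the list was -0.22 for low against high PSGL1, beside 0.01 over all genes. Foxo1 encodes a forkhead factor that activates Klf2 and the gene for L-selectin. Its ratios were 0.643, 0.546 and 0.595 in CD62Llo PSGL1lo cells, 0.924, 1.010 and 0.883 in CD62Llo PSGL1hi cells, 0.990, 1.094 and 1.226 in CD62Lhi PSGL1hi cells, and 2.204, 2.277 and 1.751 in naive cells. Its means therefore kept the order of Klf2. Low PSGL1 went with -0.66 ± 0.12 (adjusted p = 0.00136), and CD62Llo PSGL1lo against naive cells gave -1.80 ± 0.12 (adjusted p = 8.99e-09); 2 of its 3 other probe sets gave the same calls. Mef2a was lower by -0.46 with low PSGL1 (adjusted p = 0.00363), a call that none of its 5 other probe sets gave. Akt1, a kinase that inactivates FOXO1, differed by -0.52 with low PSGL1 (adjusted p = 0.00829). Against naive cells Akt1 did not follow Klf2. It gave -0.003 in CD62Llo PSGL1lo cells (adjusted p = 0.989). It was higher than naive in CD62Llo PSGL1hi cells (0.51, adjusted p = 0.00491) and in CD62Lhi PSGL1hi cells (0.44, adjusted p = 0.0138). Pik3ip1, an inhibitor of PI3 kinase, was lower than naive in CD62Llo PSGL1lo cells by -1.65 (adjusted p = 8.2e-08), with -0.22 for low against high PSGL1 (adjusted p = 0.42). Akt2 was lower than naive by -0.97 (adjusted p = 5.96e-06), which its 2 other probe sets did not show.

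The other Krüppel-like factors differed in direction among themselves. Of 8 measured, low PSGL1 went with 3 lower (Klf6, Klf9, Klf10) and 1 higher (Klf7), beside 10.7% of all genes called, and CD62Llo PSGL1lo against naive cells gave 3 lower and 3 higher, beside 23.2%. Klf6 differed by -1.06 and Klf7 by 0.91 with low PSGL1 (adjusted p = 0.000152 and 0.000475), the Klf7 value being 1.75 after quantile normalization. These counts rest on main probe sets, and those of Klf12 disagree. With low PSGL1 Klf12 gave 0.105 (adjusted p = 0.771) on its main probe set and -1.76 (3.02e-06) on the probe set with the highest SD. Against naive cells CD62Llo PSGL1lo cells gave 0.056 (adjusted p = 0.826) and 0.95 (0.000392) on the same probe sets. Klf10, a TGF-beta-inducible repressor, had mean ratios of 0.802, 1.40, 1.56 and 0.558 in CD62Llo PSGL1lo, CD62Llo PSGL1hi, CD62Lhi PSGL1hi and naive cells. Unlike that of Klf2, its mean was therefore lowest in naive cells. CD62Llo PSGL1lo cells exceeded naive cells by 0.515 (adjusted p = 0.0215), a call lost in 5 of 17 alternatives. After quantile normalization that difference was 0.246 (adjusted p = 0.471). Klf9 gave -0.56 with low PSGL1 (adjusted p = 0.0435), a call lost in 6 of 18 alternatives. In the fit of all probe sets its adjusted p was 0.0696. The other Klf9 probe sets ran there from -0.64 (adjusted p = 0.0326) to 0.16 (0.545), and only the former was called. Klf4 was 1.38 higher in CD62Llo PSGL1lo than in naive cells (adjusted p = 3.46e-05), 0.90 after quantile normalization and not called on its other probe set, and gave 0.17 for low against high PSGL1 (adjusted p = 0.742). On its main probe set Klf13 was highest in naive cells, at a mean of 1.52, and lower in CD62Llo PSGL1lo cells by -0.96 (adjusted p = 6.39e-06). Its means there, 0.788, 0.962, 1.03 and 1.52, had the order of Klf2, with -0.29 for low against high PSGL1 (adjusted p = 0.128). In the fit of all probe sets, its other probe sets gave -1.08 (adjusted p = 0.000327) and -0.225 (0.342) against naive cells. They gave -0.02 and 0.13 for low against high PSGL1, without a call.

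Among 12 other genes of the sphingosine-1-phosphate pathway, 1 was higher and 1 lower with low PSGL1, and 3 were higher and none lower in CD62Llo PSGL1lo than in naive cells. These counts are near the 10.7% and 23.2% of all genes called in the 2 comparisons. S1pr2, whose receptor couples to Gα13 and confines lymphocytes instead of drawing them out, ran opposite to S1pr1. Its ratios were 4.589, 2.641 and 3.590 in CD62Llo PSGL1lo cells, 1.171, 1.195 and 1.094 in CD62Llo PSGL1hi cells, 0.906, 0.886 and 0.884 in CD62Lhi PSGL1hi cells, and 0.408, 0.409 and 0.374 in naive cells. S1pr2 was higher with low PSGL1 by 1.61 ± 0.15 (adjusted p = 1.16e-06) and CD62Llo PSGL1lo against naive cells gave 3.15 (adjusted p = 1.44e-10), and its other probe set was called in both. The PSGL1 step exceeded the CD62L step by 1.24 (adjusted p = 0.00906). S1pr5, which guides NK cells out of tissue, was lower with low PSGL1 (-1.40, adjusted p = 0.00591). Its CD62Llo PSGL1hi ratios were 1.561, 1.471 and 4.708, and without the third array the difference was -0.86 (adjusted p = 0.00182). Sgpl1, the lyase that degrades the lipid, was 0.87 higher in CD62Llo PSGL1lo than in naive cells (adjusted p = 2.88e-05), on 1 of 2 probe sets. Abcc1, an exporter, was 0.45 higher than naive (adjusted p = 0.0316), a call lost in 6 of 17 alternatives. Cd69, whose protein draws S1PR1 from the surface, gave 0.41 for low against high PSGL1 (adjusted p = 0.181; 0.0257 with the replicate block over 12 arrays and 0.035 within the 9 CD44+ arrays). S1pr3 gave 0.04 (adjusted p = 0.924) on its main probe set and 1.94 (adjusted p = 2.05e-07) on the probe set with the highest SD, so its probe sets disagree.

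**Figure D4:**
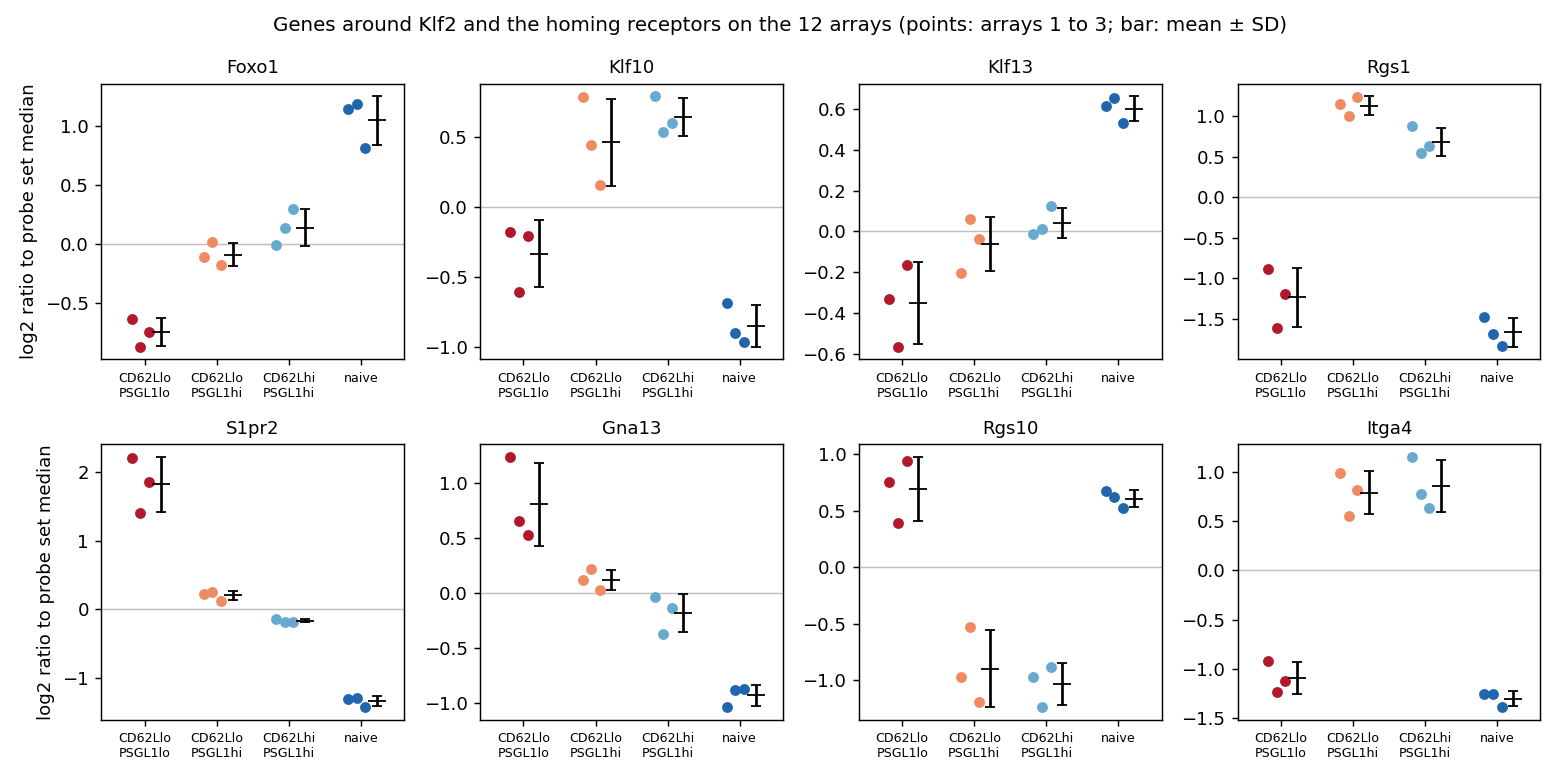
Log2 ratios of 8 genes around Klf2 and the receptors (y axis, its range differing between panels) in CD62Llo PSGL1lo, CD62Llo PSGL1hi, CD62Lhi PSGL1hi and naive cells, with points for arrays and bars for mean ± SD (n = 3). Foxo1 climbs from left to right and S1pr2 and Gna13 descend, while Klf10, Rgs1 and Itga4 are high in the PSGL1hi populations and Rgs10 is low there.

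Genes of receptor signalling, 16 in all, gave 1 higher and 2 lower with low PSGL1, and 3 higher and 4 lower in CD62Llo PSGL1lo than in naive cells, beside 10.7% and 23.2% of all genes called. Gna13, encoding the G protein Gα13 through which S1PR2 signals, had mean ratios of 1.80, 1.09, 0.887 and 0.525 in CD62Llo PSGL1lo, CD62Llo PSGL1hi, CD62Lhi PSGL1hi and naive cells. It was 0.69 ± 0.15 higher with low PSGL1 (adjusted p = 0.00627; 0.0663 after quantile normalization), and all 6 of its other probe sets were called higher. Against naive cells it was 1.74 higher (adjusted p = 2.26e-07). Rap1b, a GTPase that activates integrins, was lower with low PSGL1 by -0.84 (adjusted p = 0.00128) and on 1 of its 2 other probe sets. Rhoa, a target of Gα13, was lower by -0.92 on its main probe set (adjusted p = 0.00159), whereas its 2 other probe sets gave no call. Coro1a, an actin regulator needed for T cell egress, was lower in CD62Llo PSGL1lo than in naive cells by -0.97 (adjusted p = 4.19e-05), again on the main probe set alone of 3.

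Genes that damp receptor signals included some that ran with Klf2 and some against it between PSGL1lo and PSGL1hi cells. Of 13 measured, 1 was higher and 3 lower with low PSGL1, beside 4.55% and 6.17% of all genes, and 4 were higher and 3 lower in CD62Llo PSGL1lo than in naive cells, beside 10.9% and 12.3%. Rgs1, which shortens signalling of CXCR4 and other chemokine receptors, had ratios of 0.540, 0.326 and 0.437 in CD62Llo PSGL1lo cells, 2.221, 2.002 and 2.348 in CD62Llo PSGL1hi cells, 1.833, 1.460 and 1.545 in CD62Lhi PSGL1hi cells, and 0.358, 0.312 and 0.281 in naive cells. It was lower with low PSGL1 by -2.36 ± 0.16 (adjusted p = 3.51e-08). Rgs10 had the opposite profile, with means of 1.64, 0.546, 0.491 and 1.52 in the same populations, and was 1.59 higher with low PSGL1 (adjusted p = 4.62e-06; 2.79 after quantile normalization). Rgs16 was 3.93 higher in CD62Llo PSGL1lo than in naive cells (adjusted p = 3.36e-10; 2.21 after quantile normalization), on 2 of 3 probe sets. Grk5, a receptor kinase, was lower with low PSGL1 by -0.69 (adjusted p = 0.0021) on both probe sets. Rgs3 was lower with low PSGL1 by -0.77 (adjusted p = 0.000338) and, among PSGL1hi cells, 0.67 higher with low than with high CD62L (adjusted p = 0.00602). No other gene of the 7 pathway lists was called between low and high CD62L in the fit of 12 arrays without a replicate block, although other settings called some. With the block, Itgb1 (0.68, adjusted p = 0.00592 over 12 arrays and 0.0112 within 9) and Rhoa (0.67, adjusted p = 0.0123 and 0.0219) were also higher in CD62Llo PSGL1hi cells, as were S1pr5 (0.95, adjusted p = 0.0431) and Arhgef1 (0.41, adjusted p = 0.0357) within the 9 arrays. After quantile normalization Itgb1 (0.82, adjusted p = 0.0306), Sgpl1 (0.45, adjusted p = 0.0198), Grk5 (0.58, adjusted p = 0.047) and Rgs1 (0.82, adjusted p = 0.00503) were called higher.

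Of 7 adhesion molecules for homing, 4 were lower and none higher with low PSGL1 (Selplg, Itga4, Itgb7 and Itgb2), beside 6.17% and 4.55% of all genes, with Selplg set by the gate. Itga4, the integrin chain that binds VCAM-1 and, paired with the Itgb7 product, the gut addressin, had means of 0.471, 1.74, 1.83 and 0.406 in CD62Llo PSGL1lo, CD62Llo PSGL1hi, CD62Lhi PSGL1hi and naive cells. It was lower with low PSGL1 by -1.88 (adjusted p = 1.2e-07), as on all 4 of its other probe sets, and gave 0.21 against naive cells (adjusted p = 0.345). Itgb7 was lower with low PSGL1 by -0.61 (adjusted p = 0.000684) and lower than naive by -1.14 (adjusted p = 3.3e-07). Itgb2, the beta chain of LFA-1, was lower with low PSGL1 by -0.46 (adjusted p = 0.0177), a call lost without CD62Llo PSGL1lo replicate 2 (0.0674) or CD62Llo PSGL1hi replicate 1 (0.0979). Its partner Itgal was 1.65 higher in CD62Llo PSGL1lo than in naive cells (adjusted p = 2.09e-09; 0.98 after quantile normalization), with 0.07 for low against high PSGL1. On its main probe set Itgb1 was 3.61 higher than naive in CD62Llo PSGL1lo cells (adjusted p = 2.01e-10), and 1.94 higher after quantile normalization. Of its 5 other probe sets 3 were called, at 2.44, 0.53 and 0.37, all smaller than on the main probe set. The rest gave 0.245 and -0.10. Of 7 ligands, ligand enzymes and scavengers of the receptors, none passed limma's test with low PSGL1 in the fit of 12 arrays without a replicate block. Hsd3b7, an enzyme that inactivates the ligand of GPR183, gave -0.49 there (adjusted p = 0.0802; 0.00287 with the block over 12 arrays and 0.00532 within the 9 CD44+ arrays, and 0.0151 and 0.0445 without CD62Llo PSGL1lo replicate 1 or CD62Lhi PSGL1hi replicate 1) and was lower than naive in CD62Llo PSGL1lo cells by -0.76 (adjusted p = 0.00255). Cxcl13, the ligand of CXCR5, was lower on its main probe set in CD62Llo PSGL1lo than in CD62Lhi PSGL1hi cells by -0.79 (adjusted p = 0.00421). That probe set gave 0.04 against naive cells (adjusted p = 0.909). It gave -0.36 for low against high PSGL1 and -0.43 for low against high CD62L. The other probe set gave -0.02 and -0.07 there (adjusted p = 0.962 and 0.917 in the fit of all probe sets), so it did not show the fall.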

How the data were processed

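RNA of 4 sorted CD4 T cell populations was measured on 12 arrays, 3 per population. The deposited values are linear ratios, which by their values are the authors' division of each probe set by its own median over the 12 arrays (within 0.002 of 1 for 99.7% of 45101 probe sets). MAS5 is named in the submitters' processing notes; its version is not given in the sources used here. Detection and signal over background are unknown. The ratios were not rescaled or filtered (array medians 0.967 to 1.02, no value at or below 0), and no pseudocount was added.

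Log2 ratios were fitted with limma 3.58.1 (lmFit, eBayes, two-sided) in R 4.3.3, on all 12 arrays with 1 mean per population. For each gene a representative probe set was kept (single symbol, without a cross-hybridisation suffix first, then with a curated RefSeq target, then the lowest number) for 18193 genes. Of the 45101 probe sets 34945 had 1 symbol, 932 several, 9160 had no entry and 64 were controls; 18032 genes matched RefSeq. A call required p under 0.05 after Benjamini-Hochberg adjustment over all genes. The F test, 6 pairwise comparisons and the difference between sorting steps were run, with 8 residual and 7.3 prior degrees of freedom; the median SE of a pairwise log2 difference was 0.118, limited by the number of arrays. A second fit held all 45037 non-control probe sets. The fit was tested on simulated data.

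The members and lists were chosen with earlier results of these data known. Named were all members, the gate genes, up to 4 genes per list with the smallest F test p and the 3 genes most like each member. Klf6, Klf7, Klf12, Akt1, Itgb2, Itgb7, Rgs3, S1pr3, Arhgef1, Cd69, Cd22, Ms4a1, Cd4, Cd2, Cd28 and Trat1 were named after their values were seen. Between CD44+ populations, deviations of arrays with the same replicate number correlated at 0.128 to 0.448. With naive arrays the range was -0.125 to 0.200. Arrays with different numbers were not compared, so these values do not show that the numbers pair arrays. No source used here says that a number marks a sort. The reported fit held no replicate term, and the block was run as an alternative. No 2 arrays held identical values. Alternatives were quantile normalization, median centring, another choice of probe set, all probe sets, robust eBayes, a replicate block, only the groups compared and leaving out each array.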

Additional observations from a re-analysis of the deposited data

How the results depend on the processing

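Across the alternatives, single values of the 7 genes kept their direction and their side of the threshold in 1054 cases, lost a call in 22, gained a call in 7 and changed sign in 2. These cases include F test p-values, which have no direction. In many others the estimate was fixed and only the adjusted p could change. That held for robust eBayes, the replicate block, all probe sets, only the groups compared and leaving out an array outside the comparison. The cases are therefore not independent checks. The sign changes were S1pr1 in the difference between sorting steps (0.014 after quantile normalization) and Ccr7 between CD62Llo PSGL1lo and CD62Lhi PSGL1hi cells (-0.481 to 0.031 on leaving out each array, above 0 without CD62Lhi PSGL1hi replicate 3 and called without its replicate 1). The count of members called between low and high CD62L was 1 with the replicate block over 12 arrays and 0 to 1 on leaving out each array (1 without CD62Llo PSGL1lo replicate 2 or CD62Lhi PSGL1hi replicate 1). The block changed no other call of a member. In the difference between sorting steps the count of members was 1 after quantile normalization. The count of all genes called between low and high CD62L was 383, 581 with the block over 12 arrays, 590 with the block within the 9 CD44+ arrays and 249 without CD62Llo PSGL1hi replicate 2. The count of all genes in the difference between steps was 716, 406 without CD62Llo PSGL1hi replicate 1 and 418 without its replicate 3. Fitting all probe sets raised counts over all features to 10696 for the F test, 3775 and 5242 for CD62Llo PSGL1lo against CD62Llo PSGL1hi and CD62Lhi PSGL1hi cells, 9044, 7772 and 7770 against naive cells in the order CD62Llo PSGL1lo, CD62Llo PSGL1hi and CD62Lhi PSGL1hi, and 1172 for the difference between steps, since more features were tested. Apart from that fit, the cause of these changes was not tested. A filter on low values could not be run on ratios, and a dim probe set cannot be told from a bright one.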
